A study of Homo sapiens with 74 samples.

Results

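SAGA is a coactivator complex that acetylates histone H3 at promoters, and its subunits were followed here as messenger RNA in 2 human erythroid leukaemia cell lines from which DOT1L or ENL had been depleted. The 10 genes were taken by symbol from the deposited gene count tables, out of 28131 genes listed. They are the acetyltransferases KAT2A (GCN5) and KAT2B (PCAF), the adaptors TADA2A, TADA2B and TADA3, the structural subunits SUPT3H, SUPT7L, SUPT20H and TAF6L, and ATXN7 of the deubiquitinase module. All 10 symbols were found in both tables. The study as a whole holds 74 samples, of which 13 are RNA-seq libraries, and the other 61 (among them PCAF chromatin profiles of K562) were not analysed here. K562, an erythroid line from a chronic myeloid leukaemia, was deposited as wild type (control), DOT1L-/- and ENL-/-, and HEL, an erythroleukaemia line, as control and DOT1L knockdown. The last groups are called K562 DOT1L KO, K562 ENL KO and HEL DOT1L KD below. Whether a knockout is 1 clone, how the knockdown was made and whether replicates are separate cultures is not given in the sources used here, so p-values measure the spread between these libraries, which may be technical.

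DOT1L methylates lysine 79 of histone H3 on the bodies of active genes, and ENL (gene symbol MLLT1) is a reader of acetylated histones found with it. In SAGA the acetyltransferase is either KAT2A or KAT2B, which are paralogs that exclude each other from one complex. Both also serve a sister complex, ATAC, in which TADA2A takes the place that TADA2B has in SAGA, while TADA3 is common to both. SUPT3H, SUPT7L, SUPT20H and the TAF-like TAF6L build the structural core, of which SUPT3H takes part in binding the TATA-binding protein, and ATXN7 anchors the enzymes that remove ubiquitin from histone H2B.

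The K562 table holds 9 columns, but control columns 2 and 3 hold the same count for each gene and entered as 1 library. K562 thus had 2 distinct control libraries, 3 of the DOT1L KO and 3 of the ENL KO, with total counts between 15404944 and 29236703. HEL had 2 libraries per group, with totals between 12151495 and 12811688. The targeted genes were lower where the labels say so. DOT1L changed by -0.53 on the log2 scale in the K562 DOT1L KO, where transcript was still counted at a mean of 182 CPM (each count relative to its library's total), and by -1.64 in the HEL DOT1L KD, and MLLT1 changed by -0.48 in the K562 ENL KO. MLLT1 was also higher in the HEL KD, at 113.8 and 120.5 CPM, than in the HEL controls, at 92.9 and 84.5 CPM. All 8 erythroid markers examined were well above background in every library, at 24.6 CPM or more. The summed level of these markers was 5147 and 5543 CPM in the K562 controls, 6369 to 6810 after DOT1L knockout and 5508 to 5622 after ENL knockout. It was 5336 and 5433 in the HEL controls against 7472 and 8150 in the KD. HBG2 and TFRC make up most of that sum, and the markers did not move as one. By edgeR's test GATA1, KLF1, TAL1, EPOR, HBG1 and HBG2 rose after DOT1L knockout, from 0.47 (HBG1) to 0.88 (TAL1) on the log2 scale, and TFRC fell by 0.27 (adjusted p = 0.00165). After ENL knockout GATA1, KLF1, TAL1, EPOR and HBG2 rose, TFRC fell by 0.26 (adjusted p = 0.00299), and HBG1 did not pass. In HEL KLF1, TAL1, HBG1, HBG2 and TFRC (0.41) rose, and GATA1 (-0.06) and EPOR (0.19) did not pass. Among markers of other lineages, CD3E, CD14 and ALB stayed at or below 1.18 CPM, and CD3E was at 0 in all HEL libraries; the epithelial marker EPCAM reached 77.9 to 121 CPM in K562 and 1.22 CPM at most in HEL. EPCAM moved with the K562 groups, from a mean of 120 CPM in the controls to 81.7 after DOT1L knockout (log2 fold change -0.56, edgeR adjusted p = 3.65e-06) and 94.5 after ENL knockout (-0.35, adjusted p = 0.000375). The part of these marker levels in the results that follow was not tested. Fewer cells of a type and less RNA per cell cannot be told apart in such bulk RNA.

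The subunit genes differed widely in level. Levels are CPM with trimmed-mean (TMM) scaling factors and, to compare genes, divided by the exonic length in kilobases (CPM per kb). In the K562 controls TADA3 stood highest at 50.7 ± 2.32 CPM per kb (SD, n = 2), followed by KAT2A at 41.6 ± 1.02. SUPT7L (13.7), SUPT20H (12.1), TAF6L (11.6), TADA2B (11.1) and KAT2B (9.40) lay close together, and ATXN7 (3.38), SUPT3H (2.09) and TADA2A (0.540) formed the low end. None of these neighbours in the order overlapped between the 2 control libraries. In the K562 ENL KO the ranges of TAF6L, KAT2B, SUPT7L and SUPT20H overlapped from one neighbour to the next, and in the DOT1L KO those of SUPT7L and TAF6L did, as did those of TADA2B and SUPT20H. HEL had another order: SUPT20H led the controls at 57.5 ± 0.403 CPM per kb (SD, n = 2), ahead of TADA3 at 41.7 and KAT2A at 24.5, whereas TADA2B (3.48) and TAF6L (2.56) were low. The K562 table counts fragments and the HEL table reads, and they were scaled separately, so levels are set side by side across the lines without a test. The TADA2A model in the tables sums 2 copies, 1 of them on an alternate contig, over 4032 bases. Divided by the 2016 bases of 1 copy, TADA2A stood at 1.08 CPM per kb in the K562 controls, and in the DOT1L KO at 1.38 ± 0.301 CPM per kb (SD, n = 3), where its libraries overlapped those of SUPT3H (1.30 ± 0.118). Reads that fit both copies can have been dropped or split, so its level is uncertain.

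**Figure D1:**
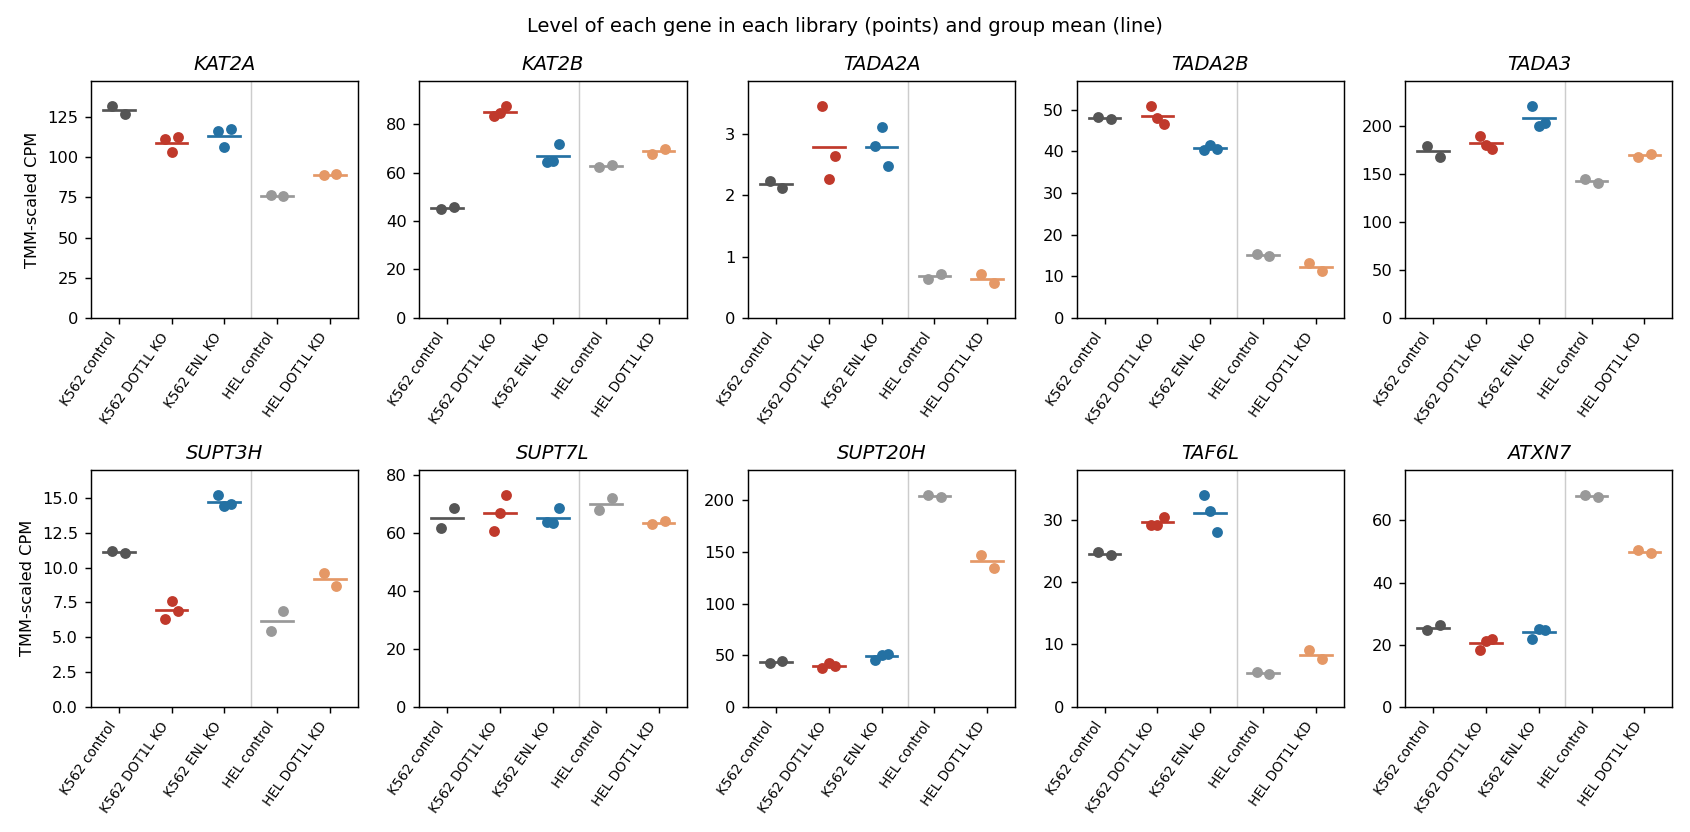
TMM-scaled CPM (y axis, linear from 0, own scale for each gene) of the 10 genes in each library (points) with the group mean (line), for the 8 distinct K562 libraries and the 4 HEL libraries. KAT2B rises from 45.0 and 45.7 in the K562 controls to between 83.2 and 87.3 in the DOT1L KO, and SUPT3H falls in the K562 DOT1L KO but rises in the ENL KO and in the HEL KD.

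After depletion the subunit genes moved in both directions. In the K562 DOT1L KO, KAT2B and TAF6L rose, and KAT2A, SUPT3H and ATXN7 fell. In the K562 ENL KO, KAT2B, TADA3, SUPT3H and TAF6L rose, and KAT2A and TADA2B fell. In the HEL DOT1L KD, KAT2A, KAT2B, TADA3, SUPT3H and TAF6L rose, and TADA2B, SUPT7L, SUPT20H and ATXN7 fell. Calls were made with edgeR's quasi-likelihood test at an adjusted p under 0.05, with adjustment over all genes tested. Thus 5 of 10 genes passed in the DOT1L KO, 2 higher and 3 lower, where 51.1% of all 14301 genes tested passed (26.9% higher and 24.2% lower). In the ENL KO 6 of 10 passed, 4 higher and 2 lower, against 41.0% of all genes (18.8% higher and 22.2% lower). In HEL 9 of the 9 that could be tested passed, 5 higher and 4 lower, against 55.0% of 12635 genes (27.0% higher and 28.0% lower). The DOT1L KO share is near its background, and the ENL KO share (60% of only 10 genes) is above it. The libraries of the groups compared did not overlap for 6 of 10 genes in the DOT1L KO (68.1% of all genes tested), 8 of 10 in the ENL KO (59.6%) and 9 of 9 in HEL (75.9%). The HEL share of calls stands above its background, but DESeq2 placed 4 of the 9 past the threshold. Upper-quartile or library-size scaling left 5 higher and 2 lower. Of all HEL genes 7180 passed with upper-quartile scaling, 61.4% of them higher, and 7098 with library-size scaling, 55.2% of them higher. No share of all genes was taken for DESeq2 or for fits with 1 library left out. The DOT1L KO count was 3 without either control library, and the ENL KO count 2 without control 2. The median log2 fold change of the 10 genes was 0.03 after DOT1L knockout (0.01 for all genes tested) and 0.22 after ENL knockout (0.00 for all genes), and that of the 9 genes in HEL was 0.13 (0.01 for all genes). TADA2A, with 7 to 9 counts per HEL library, was below the count filter there. Both K562 knockouts were compared with the same 2 control libraries. The labels of the K562 control and DOT1L KO libraries name a lane and those of the ENL KO libraries name none, so a batch and the ENL knockout cannot be told apart.

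KAT2B, which encodes the acetyltransferase PCAF (chromosome 3, 20040032 to 20154404, plus strand, 18 exons, GRCh38), had the largest increase of the 10 genes in K562. The controls had 45.0 and 45.7 CPM, the DOT1L KO libraries 83.2, 84.4 and 87.3, and the ENL KO libraries 64.3, 64.7 and 71.7. The 3 groups did not overlap, and the DOT1L KO stood highest. The log2 fold change was 0.91 (SE 0.067, adjusted p = 1.00e-07) in the DOT1L KO, or 1.87-fold, and 0.56 (SE 0.067, adjusted p = 1.83e-05) in the ENL KO. In HEL the controls had 62.4 and 63.1 CPM, above the K562 controls, and the KD libraries 67.7 and 69.8. That increase was small, 0.13 on the log2 scale (95% interval 0.02 to 0.24, adjusted p = 0.0377), and the call was lost in 6 of 9 alternatives, among them DESeq2 (adjusted p = 0.277) and the omission of any one of the 4 libraries (adjusted p from 0.0594 to 0.207).

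KAT2A, which encodes GCN5 (chromosome 17, 42113111 to 42121364, minus strand, 18 exons), went the other way in K562. Its controls had 132 and 127 CPM, the DOT1L KO libraries 111, 103 and 113, and the ENL KO libraries 116, 107 and 118. All knockout libraries lay below both controls, and the ranges of the knockouts overlapped. KAT2A fell by 0.25 on the log2 scale in the DOT1L KO (SE 0.063, adjusted p = 0.00490) and by 0.19 in the ENL KO (SE 0.063, adjusted p = 0.0277). Of all genes tested 55% and 59.1% had a larger absolute change. In HEL it rose, from 76.4 and 75.8 CPM to 88.8 and 89.3, by 0.23 on the log2 scale (SE 0.049, adjusted p = 0.000110). Without control 1 the adjusted p in the DOT1L KO was 0.0502, and without control 1, control 2 or ENL KO 2 that in the ENL KO was 0.175, 0.0759 and 0.109.

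The balance of the paralogs was read as a ratio within each library, which needs no scaling factor. KAT2B made up 18.4% ± 0.518 (SD, n = 2) of the summed KAT2A and KAT2B level per kb in the K562 controls. Its share was 33.5% ± 0.993 (n = 3) in the DOT1L KO, and the ENL KO had 27.6% ± 1.08 (n = 3). In HEL it made up 34.7% ± 0.301 (n = 2) in the controls and 33.2% ± 0.383 (n = 2) in the KD. KAT2A therefore remained the more abundant transcript per length in every group. The log2 ratio of KAT2B to KAT2A exceeded that of the controls by 1.15 after loss of DOT1L and 0.75 after loss of ENL. It was higher by 0.40 in the DOT1L KO than in the ENL KO and lower in the HEL KD than in its controls (-0.10). No 2 groups compared overlapped, but designs of this size cannot reach 0.05. In K562 the two-sided exact permutation p was 0.1 in each of the 3 comparisons, the smallest possible, and in HEL it was 0.333, also the smallest possible. After Benjamini-Hochberg adjustment over the 8 ratio comparisons made these exact permutation p-values were 0.2 and 0.333.

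**Figure D2:**
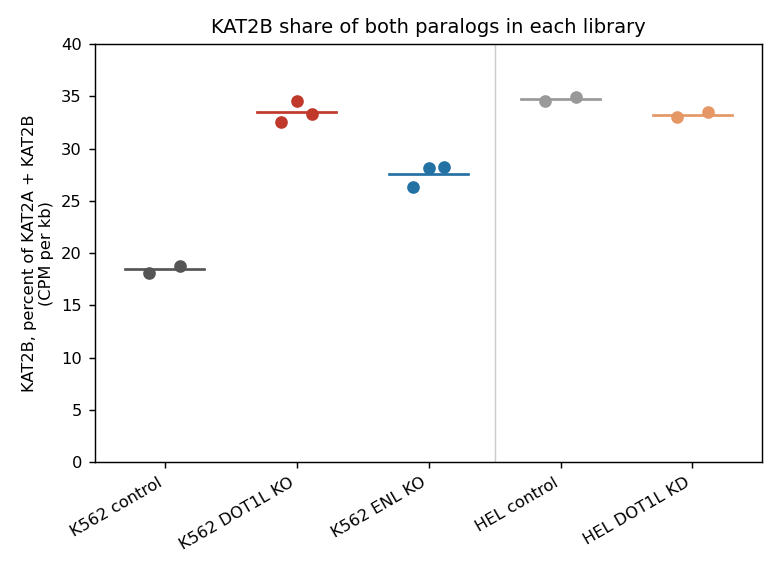
Share of KAT2B in the summed KAT2A and KAT2B level (CPM per kb, percent, y axis from 0) in each library (points) with the group mean (line). The K562 controls lie at 18.1% and 18.8%, the DOT1L KO libraries between 32.6% and 34.5%, the ENL KO libraries between 26.3% and 28.2%, and all 4 HEL libraries between 33.0% and 34.9%.

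Among the adaptors, which position the acetyltransferase on its substrate, TADA3 and TADA2B each passed in some comparisons and TADA2A passed in none. TADA3 (chromosome 3, 9779964 to 9793011, minus strand) had 179 and 168 CPM in the K562 controls, 189, 180 and 176 after DOT1L knockout, and 220.3, 200.4 and 203 after ENL knockout. The DOT1L KO overlapped the controls (log2 fold change 0.07, 95% interval -0.06 to 0.20, adjusted p = 0.371), and the ENL KO lay above them (0.26, SE 0.061, adjusted p = 0.00392; without control 2 the adjusted p was 0.0612). In HEL, TADA3 rose from 145 and 141 CPM to 168 and 171 (0.25, SE 0.040, adjusted p = 4.38e-07). Of its 3419 exonic bases 517 (15.1%) lie in exons of ARPC4 and ARPC4-TTLL3 on the other strand. The libraries mark strand but its use in counting is not given in the sources used here, so reads there cannot be assigned with certainty.

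TADA2B (chromosome 4, 7043429 to 7057950, plus strand), the adaptor particular to SAGA, had 48.2 and 47.8 CPM in the K562 controls and 50.8, 48.0 and 46.6 in the DOT1L KO, which overlapped. The ENL KO libraries were lower, at 40.3, 41.4 and 40.6 CPM. The log2 fold change was 0.01 (95% interval -0.13 to 0.16, adjusted p = 0.886) in the DOT1L KO and -0.24 (SE 0.067, adjusted p = 0.0125) in the ENL KO, where the adjusted p was 0.0797 without control 1 and 0.0659 without control 2. In HEL it fell from 15.2 and 14.8 CPM to 13.1 and 11.3, by 0.30 on the log2 scale (SE 0.12, adjusted p = 0.0324), a call lost in 7 of 9 alternatives. These included DESeq2 (adjusted p = 0.220) and the omission of HEL control 1 (0.106), HEL control 2 (0.0553) or KD 2 (0.282).

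TADA2A (chromosome 17, 37406886 to 37477121, plus strand), the ATAC adaptor, was scarce, with 38 to 76 counts per K562 library. The controls had 2.23 and 2.13 CPM, the DOT1L KO libraries 3.45, 2.26 and 2.65, and those of the ENL KO 2.80, 3.11 and 2.47. All 6 knockout libraries were above both controls, yet neither difference passed: 0.34 (95% interval -0.13 to 0.81, adjusted p = 0.211) for the DOT1L KO and 0.37 (95% interval -0.11 to 0.85, adjusted p = 0.209) for the ENL KO. In HEL the 4 libraries held 0.639 and 0.714 CPM (controls) and 0.715 and 0.569 CPM (KD), with overlap. The log2 ratio of TADA2A to TADA2B per length exceeded that of the controls by 0.32 (DOT1L KO) and 0.59 (ENL KO). The exact permutation p was 0.2 and 0.1 (two-sided, smallest possible 0.1), and 0.267 and 0.2 after adjustment over the 8 ratio comparisons.

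SUPT3H (chromosome 6, 44809057 to 45378051, minus strand) moved in opposite directions in the 2 knockouts and had the largest log2 difference between 2 K562 groups of the 10 genes. The controls had 11.2 and 11.0 CPM, the DOT1L KO libraries 6.31, 7.56 and 6.91, and the ENL KO libraries 15.2, 14.4 and 14.6. No library of one group entered the range of another. SUPT3H fell by 0.67 on the log2 scale in the DOT1L KO (SE 0.11, adjusted p = 0.000156) and rose by 0.41 in the ENL KO (SE 0.10, adjusted p = 0.00637). Of all genes tested 24.5% and 33.7% had a larger absolute change. In HEL it rose, from 5.43 and 6.90 CPM to 9.61 and 8.70 (0.57, SE 0.16, adjusted p = 0.00226). The K562 calls were kept in every alternative tried, and the HEL call was lost with DESeq2 (adjusted p = 0.0718) and without HEL control 1 (0.0689). The values rest on 139 to 315 fragments per K562 library and 68 to 121 reads per HEL library.

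SUPT3H and KAT2A are the members that passed the threshold in opposite directions in the 2 lines after DOT1L depletion, and the stretches before their starts are printed for that reason. The sequences are those of RefSeq on GRCh38.p14, 5′ to 3′ on the gene's strand, and cover only bases before the start of the gene in both RefSeq and the deposited tables, at chr17:42121368-42121617 (minus strand) for KAT2A and chr6:45378052-45378184 (minus strand) for SUPT3H. Capitals mark CCGCCC, the reverse complement of the GC-box motif GGGCGG.
KAT2A: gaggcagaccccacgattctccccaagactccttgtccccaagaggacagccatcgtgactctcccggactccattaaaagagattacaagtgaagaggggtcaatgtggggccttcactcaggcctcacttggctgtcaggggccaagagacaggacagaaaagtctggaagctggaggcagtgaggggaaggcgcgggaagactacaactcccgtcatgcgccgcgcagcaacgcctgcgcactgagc
SUPT3H: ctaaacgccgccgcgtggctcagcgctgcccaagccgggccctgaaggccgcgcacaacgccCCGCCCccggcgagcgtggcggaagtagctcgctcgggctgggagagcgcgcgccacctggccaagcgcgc
The 250 bases of KAT2A hold none of the 5 motifs searched on both strands, and the 133 bases of SUPT3H hold 1 match.

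In the RefSeq windows of 300 bases (250 before to 50 after each start), the 10 genes had 18 windows. GGGCGG was found in 8 of the 10 genes and in 12 of 18 windows, against 45.0% of all 35116 windows. No share per gene was taken, and a gene with several windows has more chances of a match. The CCAAT box was found in 5 of 18 windows, of 4 genes (34.6% of all windows). The ETS-type motif CCGGAAG was found in 3 of 18 windows, of ATXN7, SUPT7L and TADA3 (10.3% of all windows). The TATA box, searched as TATAAA, was found in 2 of 18 windows, both of ATXN7 (11.5% of all windows), and the GATA-type motif GATAAG in 0 of 18 (6.4% of all windows). The KAT2B window was 80.3% G and C, above 97.7% of all windows, and held 4 GC boxes. The counted KAT2B model starts at 20040032, so this window (20040196 to 20040495) lies wholly after that start. Some windows of ATXN7, SUPT3H, TADA2A and TADA3 also lie after the start of the counted model. The counts above include all such windows. The TAF6L window was 55.7% G and C, with 2 CCAAT boxes and 2 GC boxes. The counted TAF6L model starts at 62771303, before the RefSeq start at 62771396. The 157 bases of the window before the start of that model hold 0 matches. The KAT2A window was 62.0% G and C, with no match. Matches describe the letters of these windows and are not sites of binding.

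TAF6L (chromosome 11, 62771303 to 62787341, plus strand), a SAGA paralog of the TFIID subunit TAF6, passed with an increase in each comparison with a control, of which the K562 ones share their controls. The K562 controls had 24.9 and 24.3 CPM, the DOT1L KO 29.2, 29.2 and 30.5, and the ENL KO 34.0, 31.4 and 28.1. Every knockout library was above both controls. The log2 fold change was 0.27 (SE 0.088, adjusted p = 0.0208) in the DOT1L KO and 0.35 (SE 0.089, adjusted p = 0.00699) in the ENL KO. In HEL, where it was scarcer, it rose from 5.51 and 5.31 CPM to 9.06 and 7.64 (0.63, SE 0.17, adjusted p = 0.00140). The DOT1L KO call was lost without control 1 (adjusted p = 0.0809), control 2 (0.118) or DOT1L KO 3 (0.0573), the ENL KO call without control 2 (0.0562), and the HEL call with DESeq2 (0.0558).

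SUPT20H (chromosome 13, 37009314 to 37059713, minus strand), a structural subunit that links the modules, was far higher in the HEL controls than in the K562 controls of these separately scaled tables. In HEL it fell from 205 and 203 CPM to 147 and 135, by 0.54 on the log2 scale (SE 0.040, adjusted p = 1.13e-16), and the call was kept in every alternative tried. In K562 the controls had 42.0 and 44.1 CPM, the DOT1L KO 37.1, 42.4 and 39.9, and the ENL KO 45.4, 49.7 and 51.2. Neither difference from the controls passed: -0.11 (95% interval -0.28 to 0.06, adjusted p = 0.267) and 0.18 (95% interval 0.01 to 0.35, adjusted p = 0.0921). Of its exonic bases 8.5% are shared with EXOSC8 on the other strand.

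SUPT7L (chromosome 2, 27650810 to 27663840, minus strand) encodes a histone-fold subunit. The K562 controls had 61.6 and 68.4 CPM, the DOT1L KO 60.6, 66.9 and 73.0, and the ENL KO 63.6, 63.2 and 68.6, all overlapping. The differences were 0.04 (95% interval -0.14 to 0.21) and 0.00 (95% interval -0.18 to 0.18). In HEL it fell from 67.8 and 71.9 CPM to 62.9 and 63.9, by 0.14 on the log2 scale (adjusted p = 0.0253), but the call was lost in 7 of 9 alternatives, with an adjusted p of 0.295 under upper-quartile scaling, 0.192 with DESeq2, and 0.222, 0.115 and 0.0577 without HEL control 2, KD 1 and KD 2. Exons of GPN1 and SLC4A1AP on the other strand share 22.6% of its exonic bases.

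ATXN7 (chromosome 3, 63864557 to 64003460, plus strand), whose expanded repeat causes a spinocerebellar ataxia, fell in both lines after DOT1L depletion. It had 24.6 and 26.2 CPM in the K562 controls and 18.3, 21.1 and 21.9 in the DOT1L KO, a fall by 0.31 on the log2 scale (SE 0.097, adjusted p = 0.0157). The adjusted p was 0.112 without control 2 and 0.0582 without DOT1L KO 1. The ENL KO libraries (21.9, 25.1 and 24.7 CPM) overlapped the controls, with a log2 fold change of -0.09 (95% interval -0.30 to 0.12, adjusted p = 0.499). In HEL, ATXN7 fell from 68.2 and 67.7 CPM to 50.5 and 49.5, by 0.44 on the log2 scale (SE 0.057, adjusted p = 3.90e-09), a call kept in every alternative tried.

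**Figure D3:**
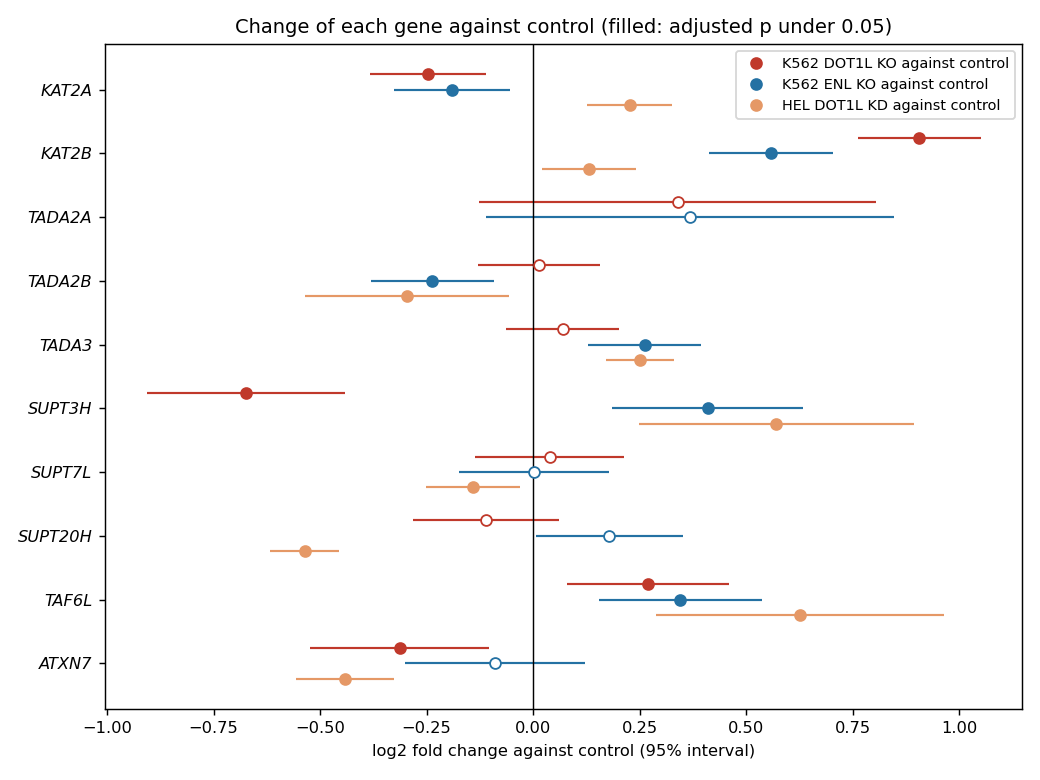
Log2 fold change against control (x axis) with its 95% interval for each of the 10 genes in the K562 DOT1L KO, the K562 ENL KO and the HEL DOT1L KD, with filled points where the adjusted p is under 0.05; TADA2A has no HEL point because it was not tested there. KAT2B in the DOT1L KO (0.91) and SUPT3H in the DOT1L KO (-0.67) lie farthest from 0, and the points of SUPT3H lie on both sides of 0.

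The direct comparison of the 2 K562 knockouts uses no control library. The ENL KO labels name no lane, so a batch and the genotype cannot be told apart here either. KAT2B (0.35, SE 0.058, adjusted p = 0.000152) and TADA2B (0.25, SE 0.060, adjusted p = 0.00275) were higher in the DOT1L KO than in the ENL KO. SUPT3H (-1.08, SE 0.096, adjusted p = 3.84e-07), SUPT20H (-0.29, adjusted p = 0.00317), TADA3 (-0.19, adjusted p = 0.00766) and ATXN7 (-0.22, adjusted p = 0.0425) were lower. That is 6 of the 10 genes, 2 higher and 4 lower, while 60.2% of all genes tested passed (31.8% higher and 28.3% lower). The libraries did not overlap for 6 of the 10 genes, against 63.3% of all genes. KAT2A (-0.06, 95% interval -0.18 to 0.07, adjusted p = 0.407) and TAF6L (-0.08, 95% interval -0.24 to 0.09, adjusted p = 0.417) did not pass. The ATXN7 call was lost with DESeq2 (adjusted p = 0.0654) and without DOT1L KO 1 (0.177), DOT1L KO 2 (0.0614), ENL KO 2 (0.146) or ENL KO 3 (0.0972), and the other 5 calls were kept in every alternative tried.

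Whether the 2 lines answered DOT1L depletion alike was tested with an interaction term in a joint fit of 9 libraries, in which line, method of depletion (KD or KO) and counting unit (reads or fragments) change together. Of the 10 genes 5 differed, 3 with a higher and 2 with a lower response in HEL, against 38.9% of 15367 genes tested (19.8% higher and 19.1% lower). Only 11644 genes were tested in the separate fits of both lines, so both shares include genes too scarce in 1 line to show a response. TADA2A, with 7 to 9 counts per HEL library, is such a gene. No share of the 11644 was taken. The response of HEL exceeded that of K562 for SUPT3H by 1.26 (SE 0.20, adjusted p = 3.75e-05), for KAT2A by 0.49 (SE 0.084, adjusted p = 7.33e-05) and for TADA3 by 0.20 (SE 0.078, adjusted p = 0.0475), in log2 units. It was lower for KAT2B (-0.76, SE 0.086, adjusted p = 4.28e-07) and SUPT20H (-0.41, SE 0.091, adjusted p = 0.00108). SUPT3H and KAT2A fell in K562 and rose in HEL, whereas KAT2B rose in both. ATXN7 and TAF6L moved in the same direction in both lines. The difference of responses did not pass for either, with unadjusted 95% intervals of -0.35 to 0.13 and 0.02 to 0.73, and edgeR's adjusted p for TAF6L was 0.0901. Between the 2 lines, which share no library, 5 genes passed in both, 3 of them in the same direction (60.0%). Of the 3452 genes of the whole table that passed in both, 57.6% had the same direction. The TADA3 difference was past the threshold in 4 of 14 alternatives, and the other 4 in every one.

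**Figure D4:**
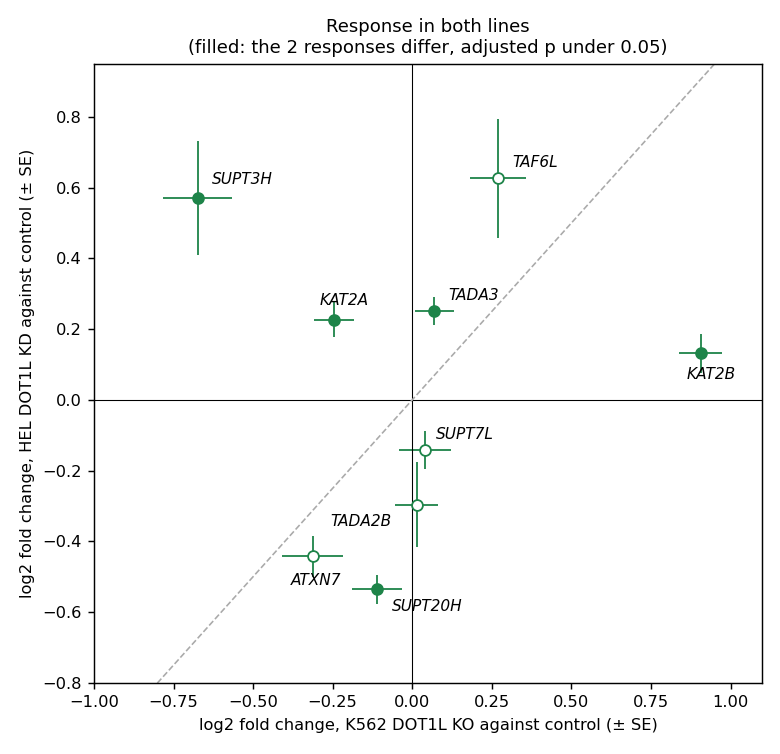
Log2 fold change after DOT1L depletion in K562 (KO, x axis) and in HEL (KD, y axis), each with its SE, for the 9 genes tested in both lines; the dashed line marks equal responses and filled points those whose difference has an adjusted p under 0.05. SUPT3H (-0.67 and 0.57) and KAT2A (-0.25 and 0.23) lie in the quadrant of opposite directions, and KAT2B (0.91 and 0.13) lies far below the dashed line.

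The other genes of these complexes were taken as 33 genes in 6 lists. In the K562 DOT1L KO 14 of 33 passed (42.4%, beside 51.1% of all genes tested), 11 higher and 3 lower where 26.9% and 24.2% of all genes were, with a median log2 fold change of 0.10. In the ENL KO 14 of 33 passed (42.4%, beside 41.0%), 9 higher and 5 lower where 18.8% and 22.2% of all genes were (median 0.06). In HEL 21 of 32 tested passed (65.6%, beside 55.0%), 7 higher and 14 lower where 27.0% and 28.0% of all genes were (median -0.08). With DESeq2 the HEL count was 12. With upper-quartile scaling it was 10 higher and 9 lower, where 61.4% of all HEL genes that passed were higher. Omitting 1 library moved the K562 counts by over 1.5 times: the DOT1L KO count was 9 without control 1, and the ENL KO count 8 without control 1 and 5 without control 2.

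In the deubiquitinase module, whose enzyme is USP22, genes moved in both directions. In the K562 DOT1L KO, where ATXN7 fell, its paralogs ATXN7L1 (0.86, adjusted p = 2.09e-05) and ATXN7L2 (0.42, adjusted p = 0.00196) rose. Of the other subunits of the module, ATXN7L3 rose (0.45, adjusted p = 0.000502), and USP22 and ENY2 did not pass. In the ENL KO, USP22 (0.16, a call kept in 7 of 12 alternatives) and ENY2 (0.24) rose and ATXN7L2 fell (-0.46). In HEL, ATXN7L3 rose (0.21) and USP22 (-0.13), ENY2 (-0.16) and ATXN7L1 (-0.58) fell.

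Of the 8 other subunits of the SAGA core, 1 passed in the DOT1L KO (12.5%, beside 51.1% of all genes), 6 in the ENL KO (75%, beside 41.0%) and 5 of 7 tested in HEL (71.4%, beside 55.0%). TAF5L, which replaces TAF5 of TFIID in SAGA, rose in each by edgeR's test. The rise was 0.45 (adjusted p = 0.000118) in the DOT1L KO, 0.23 (adjusted p = 0.0199) in the ENL KO and 0.25 (adjusted p = 0.000379) in HEL. The TAF5L call in the ENL KO was kept in 8 of 12 alternatives. TAF5 itself fell in each, with log2 fold changes of -0.47, -0.36 and -0.29. Its calls were kept in 10 of 12 alternatives in the ENL KO and 7 of 9 in HEL. TAF6, the counterpart of TAF6L, rose in the DOT1L KO (0.22), fell in HEL (-0.17, a call kept in 2 of 9 alternatives) and was at -0.14 without passing in the ENL KO. In the ENL KO the small histone-fold subunits TAF9B (0.59), TAF10 (0.46) and TAF12 (0.37) and the reader SGF29 (0.25) rose as well. The SGF29 call was kept in 7 of 12 alternatives. TRRAP, the large activator-binding subunit, fell in the ENL KO (-0.36). In HEL, TAF10 (0.23) and TRRAP (0.14, a call kept in 5 of 9 alternatives) rose and TAF12 (-0.40) and TADA1 (-0.28) fell. TAF9 is, like TADA2A, listed with a copy on an alternate contig and was not tested in HEL.

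Of 8 genes of ATAC that are not SAGA subunits, some of which also serve other complexes, 3 passed in the DOT1L KO (37.5%, beside 51.1% of all genes). The count was 2 in the ENL KO (25%, beside 41.0%) and 4 in HEL (50%, beside 55.0%). KAT14 (0.33), MBIP (0.32) and POLE3 (0.15) rose in the DOT1L KO. The POLE3 call was kept in 7 of 12 alternatives. In the ENL KO, CHRAC1 (0.21) rose and YEATS2 (-0.33) fell. In HEL, MBIP (0.27, a call kept in 5 of 9 alternatives) rose and DR1 (-0.64), CHRAC1 (-0.21) and ZZZ3 (-0.18) fell. The 2 splicing factor subunits found in SAGA, SF3B3 and SF3B5, passed in HEL, in opposite directions (-0.31 and 0.28), and in neither knockout against control. Of 8 other nuclear acetyltransferases 5 passed in the DOT1L KO (62.5%, beside 51.1% of all genes). The count was 2 in the ENL KO (25%, beside 41.0%) and 4 in HEL (50%, beside 55.0%). In the DOT1L KO, CREBBP (0.22), KAT6A (0.18) and KAT6B (0.41) rose, and KAT8 (-0.30) and HAT1 (-0.22) fell. The KAT6A call was kept in 6 of 12 alternatives. In the ENL KO, HAT1 (0.31) rose and KAT8 (-0.20) fell, and in HEL, KAT6A (0.17) rose and KAT7 (-0.31), KAT6B (-0.19) and HAT1 (-0.11) fell, the calls on KAT6B and HAT1 each being kept in 3 of 9 alternatives. EP300 passed in none of these comparisons, with log2 fold changes of 0.01, 0.00 and 0.05.

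**Figure D5:**
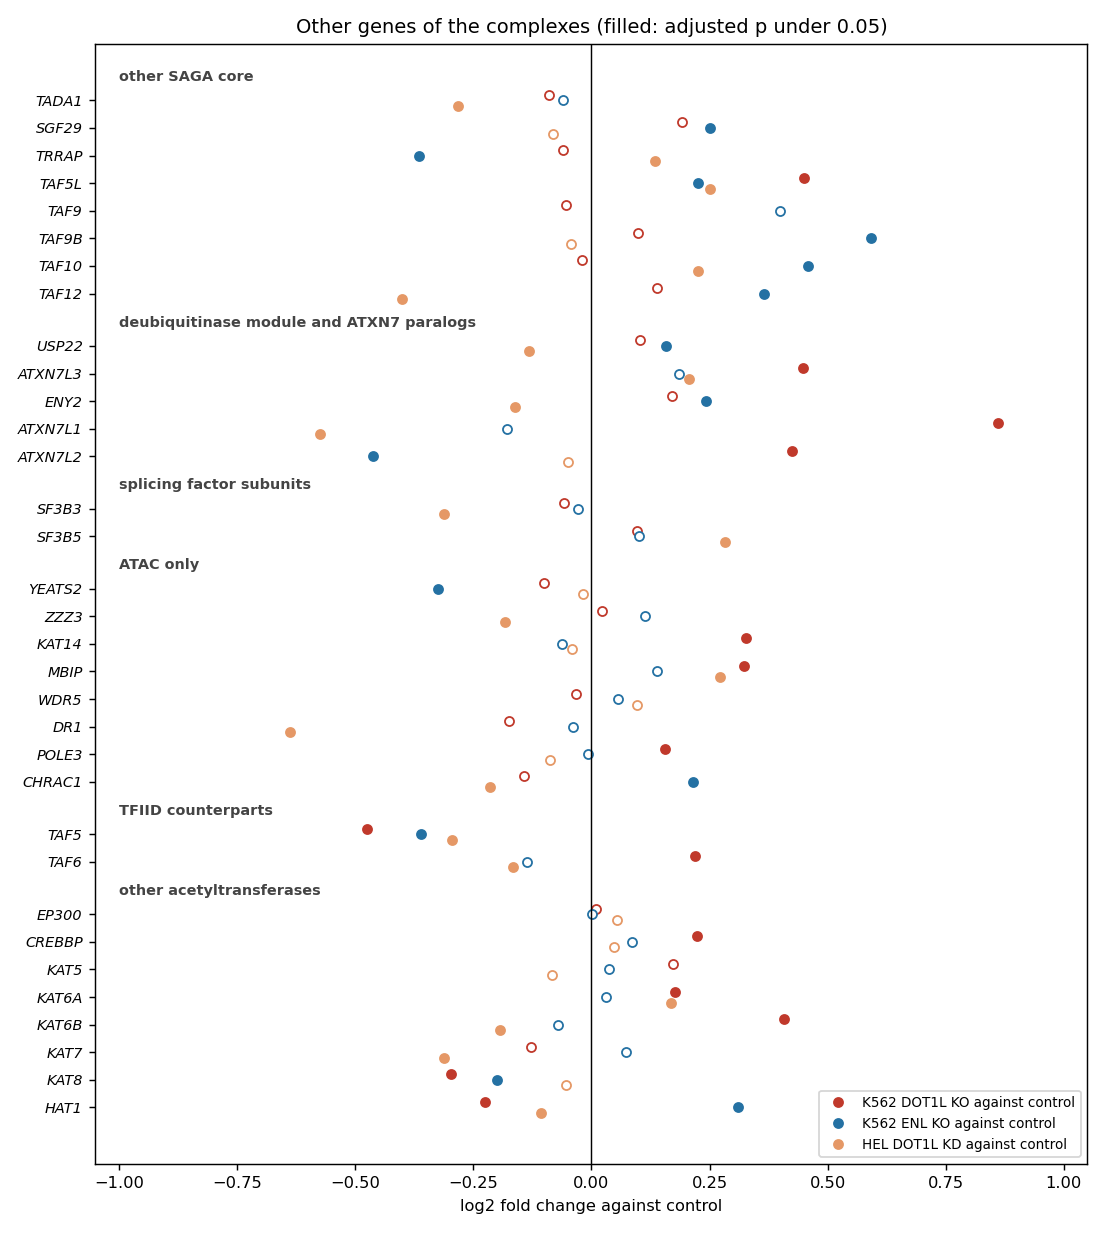
Log2 fold change against control (x axis) of the other genes of the complexes by list, in the K562 DOT1L KO, the K562 ENL KO and the HEL DOT1L KD, with filled points where the adjusted p is under 0.05. TAF5L lies right of 0 and TAF5 left of 0 in all 3 comparisons, and ATXN7L1 runs from -0.58 in HEL to 0.86 in the K562 DOT1L KO.

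The genes whose pattern over all 12 libraries was most like that of KAT2B were CD47, EPOR and RNF144A, with a root mean square difference of 0.0812, 0.0959 and 0.0970 log2 units after each gene was centred on its control mean in each line, against a median of 0.580 over 8984 genes expressed in both. CD47 encodes a cell surface receptor and EPOR the erythropoietin receptor. CD47 changed by 0.98 in the DOT1L KO, 0.52 in the ENL KO and 0.00 in HEL, and EPOR by 0.79, 0.58 and 0.19 (adjusted p = 0.0577 in HEL). For KAT2A they were CEP250, STX6 and TMEM11, at 0.0622, 0.0625 and 0.0653 against a median of 0.287. CEP250 changed by -0.23, -0.22 and 0.33, and STX6 by -0.29, -0.18 and 0.17 in the same order. The likeness is a description of these libraries.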

How the data were processed

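Polyadenylated RNA had been sequenced from strand-marked (dUTP) libraries, per the labels' protocols. The authors deposited whole-number counts per gene: fragments for K562 and reads for HEL, per the file headers. The submitters' processing notes name fastp 0.13.1, HISAT2 2.1.0, Bowtie2 2.3.4.1 and featureCounts 1.6.1 and builds hg38 and hg19, with no role. The genes' positions overlapped RefSeq on GRCh38. Use of strand in counting is not given in the sources used here. All columns were matched to samples by name (0 were not).

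Counts were filtered with filterByExpr (minimum count 10, total 15), scaled with TMM factors and tested with edgeR 4.0.16 in R 4.3.3 (quasi-likelihood, Benjamini-Hochberg over all genes, threshold 0.05): 8 K562 libraries in 1 fit, 4 HEL libraries in another, 9 libraries in the interaction fit. The biological coefficient of variation was 6.34% in K562 and 1.83% in HEL. A floor of 3 counts was worth 0.101 to 0.244 CPM and covers counting error only. Within-library paralog ratios were compared with exact permutation tests. The scripts were tested on simulated data.

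All 10 members are named, and of the 33 other genes those past the threshold, or beside such a gene. The 3 nearest genes of KAT2B and KAT2A were taken among genes of at least 5 CPM in both lines. Some marker genes are not reported here. Members and lists were chosen with earlier results of these data known. Alternatives were upper-quartile and library-size scaling, no filter, DESeq2 1.42.0, a replicate block, all columns as deposited, only the groups compared and the omission of each library; the use of the length of 1 TADA2A copy was chosen after seeing the data.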

Additional observations from a re-analysis of the deposited data

Results flagged for a closer look

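For 17 of the 43 genes followed, the response to DOT1L depletion differed between HEL (knockdown) and K562 (knockout) by the interaction test of edgeR's joint fit, at an adjusted p under 0.05, beside 38.9% of all genes tested. The 43 include TADA2A, below the count filter in HEL, and TAF9, with 0 counts there, whose HEL response could not be measured. Values are the log2 response of HEL minus that of K562. Among the members these were SUPT3H at 1.26 (adjusted p = 3.75e-05), KAT2A at 0.49 (adjusted p = 7.33e-05), TADA3 at 0.20 (adjusted p = 0.0475), SUPT20H at -0.41 (adjusted p = 0.00108) and KAT2B at -0.76 (adjusted p = 4.28e-07). Of the other genes, ATXN7L1 differed by -1.42 (adjusted p = 2.06e-06), rising in K562 and falling in HEL, and KAT6B by -0.58 (adjusted p = 0.000215), rising in K562, with a HEL value of -0.19 whose call was lost in 6 of 9 alternatives. TAF12 differed by -0.52, ATXN7L2 by -0.45, DR1 by -0.45, TAF6 by -0.37 and ENY2 by -0.32. SF3B3 differed by -0.24 (adjusted p = 0.0109) and USP22 by -0.22 (adjusted p = 0.0180). KAT5 at -0.24 (adjusted p = 0.0446), POLE3 at -0.22 (adjusted p = 0.0361) and KAT8 at 0.26 (adjusted p = 0.0250) passed in 7, 6 and 8 of 14 alternatives. Line, method of depletion and counting unit cannot be told apart in these values.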

How the results depend on the processing

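Of the calls on the 10 genes, those kept in every alternative were KAT2B and SUPT3H among 5 in the K562 DOT1L KO and among 6 in the K562 ENL KO, 5 of 6 in the DOT1L KO against the ENL KO, 4 of 9 in HEL (ATXN7, KAT2A, SUPT20H, TADA3) and 4 of 5 in the difference between lines. Among the other listed genes 8 of 14 calls in the DOT1L KO, 5 of 14 in the ENL KO and 10 of 21 in HEL were kept in every alternative. Between the knockouts 13 of 17 were, and in the difference between lines 5 of 12. With no filter on low counts 6 members and 16 other listed genes passed in HEL. With DESeq2 in place of edgeR the HEL counts fell from 9 to 4 members and from 21 to 12 other listed genes. The cause of that fall was not tested. Leaving out 1 library at a time, with the spread pooled over groups where 1 control remained, gave 3 to 5 members and 9 to 14 other genes past the threshold in the DOT1L KO, 2 to 7 members and 5 to 14 other genes in the ENL KO, and 6 to 15 other genes in the difference between lines (7 without HEL KD 1, 6 without HEL KD 2). Signs changed only for differences near 0 that passed nowhere. SUPT7L in the ENL KO was at -0.02388 with upper-quartile and -0.005612 with library-size scaling, -0.02259 with all columns as deposited and -0.003907 with only the groups compared, and from -0.07094 to 0.0803 with 1 library left out. SUPT7L ran from -0.03765 to 0.1132 in the DOT1L KO and from -0.02595 to 0.1036 between the knockouts with 1 library left out. TADA2A between the knockouts was at 0.01148 with upper-quartile and 0.02361 with library-size scaling and from -0.2059 to 0.1208 with 1 library left out, and TADA2B in the DOT1L KO at -0.007422 with no filter and from -0.01847 to 0.04231. Counts of 7 to 9 (TADA2A in HEL) limit what can be tested. 

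Replicate numbers were not taken as pairs, since not every same-numbered correlation of deviations was over 0.1. In K562 all 7 were positive: 0.417 and 0.282 between control and DOT1L KO, 0.429 and 0.0894 between control and ENL KO, and 0.616, 0.0851 and 0.300 between the knockouts. They are not independent, because the deviations within a group cancel. The values of 0.417, 0.429 and 0.616 were those between libraries numbered 1, so an effect shared by these libraries is possible and was not tested. DOT1L KO 2 correlated best with ENL KO 3 (0.328), and in HEL the value was -0.028. With the replicate number as a block, 5, 7, 6 and 9 members passed in the DOT1L KO, the ENL KO, the knockouts against each other and HEL. Without it 5, 6, 6 and 9 did. Of the other listed genes 23, 17, 20 and 21 passed with the block, against 14, 14, 17 and 21 without it, so the DOT1L KO count moved most. No share of all genes was taken under the block. SUPT7L under the block was at -0.01467 (DOT1L KO) and -0.0477 (ENL KO).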
